A study of Mus musculus with 6 samples.

Results

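The 6 genes described here encode the ligand IGF-I (Igf1), the receptors that bind it or its relatives (Igf1r, Insr and Igf2r), and the adaptors that pass on the receptor signal (Irs1 and Irs2). They were taken by symbol from a table of 43432 genes. All 6 were found once each, and all 6 were among the 12881 genes with enough reads to be tested. The series asks whether IGF-I from fibro-adipogenic progenitors (FAPs, the mesenchymal progenitors resident in muscle) acts back on those cells, and Igf1 is the gene its mouse model deletes. RNA sequencing was deposited for 3 libraries titled FID and 3 titled control. Every title also has the tag D3, and neither abbreviation is spelled out in the sources used here. Both groups are labelled skeletal muscle. The treatment text is the same for every library: tamoxifen in corn oil, injected intraperitoneally at 12 to 13 weeks of age on 5 days at 100 ug per g, with a pause of 1 week or more, in mice of either sex. The labels used here name no Cre driver, allele or strain for either group. Nor do they tell whether each library is an animal of its own, so a p-value here reflects only library-to-library spread, some of which may be technical.

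IGF-I is a secreted peptide that activates a receptor tyrosine kinase, the product of Igf1r. The insulin receptor, encoded by Insr, is the closest relative of that receptor, and the pair can join into hybrids. An activated receptor phosphorylates the docking proteins IRS1 and IRS2, which recruit phosphatidylinositol 3-kinase and so switch on AKT. The product of Igf2r is built differently: it has no kinase, takes IGF-II to lysosomes for breakdown, and carries newly made lysosomal enzymes tagged with mannose 6-phosphate. In muscle, IGF-I is known for promoting growth and repair, and FAPs and macrophages are both known to make it.

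The libraries held 8750157 to 9676812 gene counts in FID and 5201853 to 10093757 in control, with control 1 the shallowest. Levels are in CPM, depth-scaled read counts with TMM library factors (trimmed mean of M values). A count of 0 allows up to 0.338 CPM in FID and up to 0.593 CPM in control. This limit and the Poisson interval given for Irs1 cover counting error only, because the reads carry no molecular identifiers. The 10 markers of mature muscle fibres, the defining cells of the tissue in the labels, summed to 35.7, 28.7 and 18.8 CPM in FID 1, 2 and 3 and to 71.4, 9.22 and 20.5 CPM in control 1, 2 and 3. These transcripts were few and uneven, and control 1 had the most. Acta1, the skeletal muscle actin gene, was the highest of them, at 16.2, 9.87 and 5.29 CPM in FID 1, 2 and 3 and at 30.9, 2.94 and 6.05 CPM in control 1, 2 and 3. Ckm, the muscle creatine kinase gene, had no more than 1.19 CPM in FID and 0.976 CPM in control. The part of fibre transcripts in the results was not tested. Y-linked transcripts were mixed within both groups. Ddx3y had 0 CPM in FID 1, FID 2 and control 1, and 72.6 CPM in FID 3, 53.8 CPM in control 2 and 40.1 CPM in control 3. The part of this mixture in the results was not tested.

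Promoters are shown first. Irs1 and Irs2 share short motifs there, and these motifs were chosen after the sequences were seen. Their part in the levels was not tested. RefSeq promoter sequences of GRCm38.p6, the assembly known as mm10, were matched for Igf1, Igf1r, Igf2r, Irs1 and Irs2, and the 250 bases before the RefSeq start were searched. That start differs from the 5′ end of the GENCODE gene model given below: it lies 23 bases upstream of it for Irs1, 42 for Igf2r, 471 for Irs2 and 570 for Igf1r, and 2846 bases downstream for Igf1. Distances from a start are from the RefSeq one. The sequences run 5′ to 3′ on the strand of the gene, with capitals marking CACGTG, the core of an E-box, and TGTTTTG, a core of the insulin response element known from genes that insulin represses. They lie on the minus strand at chr1:82291440-82291689 for Irs1, chr8:11008930-11009179 for Irs2 and chr17:12769707-12769956 for Igf2r.
Irs1: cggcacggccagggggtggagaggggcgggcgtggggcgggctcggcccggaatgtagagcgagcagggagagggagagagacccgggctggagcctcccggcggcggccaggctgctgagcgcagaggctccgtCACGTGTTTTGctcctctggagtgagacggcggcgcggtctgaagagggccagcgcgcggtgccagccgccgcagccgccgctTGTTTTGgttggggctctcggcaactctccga
Irs2: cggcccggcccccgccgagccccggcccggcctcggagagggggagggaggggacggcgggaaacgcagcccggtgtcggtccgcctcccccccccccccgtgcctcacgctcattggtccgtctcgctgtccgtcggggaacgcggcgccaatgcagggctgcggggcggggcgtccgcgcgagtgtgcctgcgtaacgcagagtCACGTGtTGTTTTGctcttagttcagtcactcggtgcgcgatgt
Igf2r: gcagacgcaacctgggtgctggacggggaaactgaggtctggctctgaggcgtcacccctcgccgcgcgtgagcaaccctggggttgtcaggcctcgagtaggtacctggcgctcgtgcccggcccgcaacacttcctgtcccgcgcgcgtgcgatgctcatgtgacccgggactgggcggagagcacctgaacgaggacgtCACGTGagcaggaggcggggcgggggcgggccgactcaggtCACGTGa
In Irs1 the E-box core begins 115 bases before the start and runs into a TGTTTTG that begins at 111 bases, the pair overlapping by a shared TG. Another TGTTTTG begins 32 bases before the Irs1 start. In Irs2 the E-box core begins 44 bases before the start and a TGTTTTG begins at 37 bases. The Igf2r promoter has the E-box core at 48 and at 7 bases and no TGTTTTG. Counting both strands, CACGTG was present in 6.02% and TGTTTTG in 5.56% of 32851 RefSeq windows of this length, and 0.295% held both. CACGTG was present 2 or more times in 0.429%. The Irs1, Irs2 and Igf2r windows had 72.4%, 72.8% and 69.2% GC and 28, 34 and 27 CpG. The medians over all windows were 52.4% GC and 6 CpG, so these shares are not matched for base content. The windows of Igf1r and Igf1 held neither. TGTTTAC, a core read by FoxO factors and present in 3.17% of windows, and TTCNNNGAA, the palindrome read by STAT5 and present in 7.02%, were found in none of the 5 windows. A match, or the lack of one, describes these letters only. The lack of TGTTTAC does not show that FoxO factors read none of these windows.

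**Figure D1:**
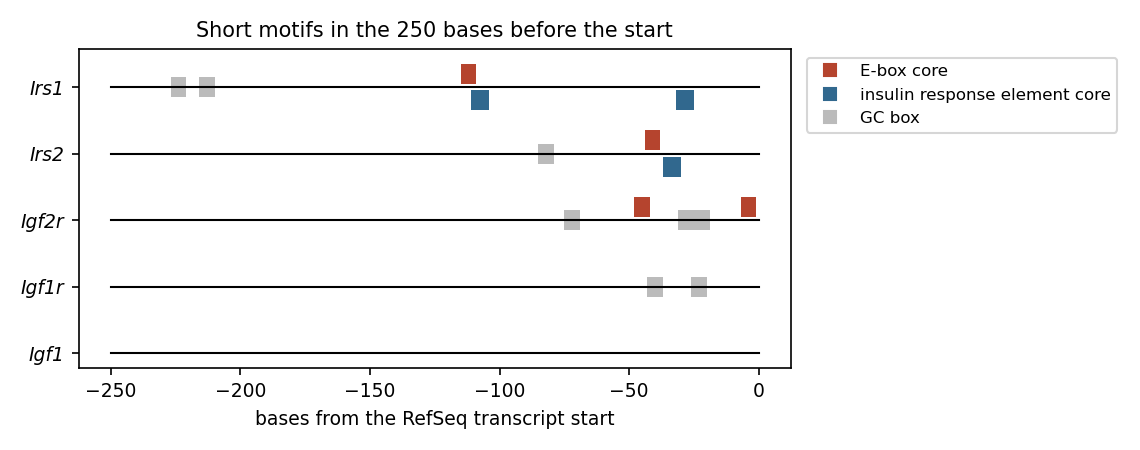
Positions of 3 short motifs in the 250 bases before the RefSeq start of 5 genes, with the x axis in bases from the start and each block drawn to scale. The GC box is GGGCGG, which 32.7% of all windows hold. Irs1 and Irs2 each have an E-box core beside an insulin response element core, Igf2r has 2 E-box cores, and the Igf1 line is empty.

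The ligand gene had nearly the same mean in both groups. Igf1 (ENSMUSG00000020053) lies on the plus strand of chromosome 10 at 87858265 to 87937042 in mm10, and its count sums 8 annotated transcripts. It stood at 109, 107 and 81.6 CPM in FID 1, 2 and 3 and at 134, 60.4 and 106 CPM in control 1, 2 and 3. The FID values all lay inside the control range, whose ends were control 1 and control 2. The coefficient of variation was 15.4% over the FID libraries and 37.2% over the control libraries. The log2 fold change of FID over control was -0.010 (SE 0.28, n = 3 each), with an adjusted p of 0.990 in edgeR's quasi-likelihood test and an approximate 95% interval from 37.0% lower to 56.5% higher. Leaving out a single library moved the log2 fold change to between -0.27 (without control 2) and 0.25 (without control 1). Its sign turned without control 1, without control 3 (0.047) or without FID 3 (0.11). The labels used here do not name the deleted exons and the counts are per gene, so the titles could not be checked with the gene that the model deletes. Markers of macrophages, which also make IGF-I, were higher in FID, as given below, and their part in the Igf1 count was not tested. Igf1os, an antisense gene that overlaps the locus without sharing an exon, had 0 to 4 counts per library.

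Igf1r, the receptor for IGF-I, had a lower level in each FID library than in any control library. The gene (ENSMUSG00000005533, chromosome 7, 67952827 to 68233668, plus strand) is the longest of the 6, with 21 merged exon blocks. It stood at 21.3, 18.7 and 20.2 CPM in FID 1, 2 and 3 and at 35.0, 24.5 and 31.9 CPM in control 1, 2 and 3. The FID libraries lay close together and the control libraries were more spread, without overlap. The means were 20.1 ± 1.31 CPM in FID and 30.5 ± 5.38 CPM in control (SD, n = 3 each). This amounts to -0.60 in log2 fold change (SE 0.17) at an edgeR adjusted p of 0.159, with a 95% interval from 13.1% to 49.9% lower, and it ran from -0.73 to -0.49 when 1 library at a time was left out. Igf1r did not pass the adjusted threshold of 0.05, with an unadjusted edgeR p of 0.00872 and a DESeq2 adjusted p of 0.0780.

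Insr, the insulin receptor gene, was highest in control 1 and otherwise similar across libraries. The gene (ENSMUSG00000005534, chromosome 8, 3122061 to 3279617, minus strand) stood at 67.8, 72.9 and 59.8 CPM in FID 1, 2 and 3 and at 134, 79.8 and 60.6 CPM in control 1, 2 and 3. The groups overlapped, since control 3 lay below FID 1 and FID 2. FID over control came to -0.44 on the log2 scale (SE 0.28) at an edgeR adjusted p of 0.409, and to -0.072 without control 1. The level of Igf1r relative to Insr within a library, which needs no scaling between libraries, was 0.314, 0.256 and 0.338 in FID 1, 2 and 3 and 0.262, 0.307 and 0.527 in control 1, 2 and 3, as a ratio of counts not adjusted for length. The mean log2 ratio was -1.73 ± 0.205 in FID and -1.52 ± 0.527 in control, and the groups overlapped. The difference was -0.21 (exact two-sided permutation p 0.7, adjusted p 0.8 over 3 ratios), and its sign turned without control 3 (0.082).

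Igf2r, the mannose 6-phosphate and IGF-II receptor gene, was the most abundant of the 6. Its coefficient of variation was 18.1% over the FID libraries and 31.8% over the control libraries. The gene (ENSMUSG00000023830, chromosome 17, 12682406 to 12769664, minus strand, 49 merged exon blocks) stood at 281, 238 and 195 CPM in FID 1, 2 and 3 and at 471, 342 and 247 CPM in control 1, 2 and 3. The groups overlapped in a single pair, FID 1 lying above control 3. FID over control came to -0.57 on the log2 scale (SE 0.25), at an edgeR adjusted p of 0.277 and with a 95% interval from 55.1% lower to 1.47% higher. It was -0.31 without control 1. In mouse, the paternal copy of Igf2r is silenced in most tissues by the antisense transcript Airn, which overlaps the gene. Airn had 17, 21 and 17 counts in FID 1, 2 and 3 and 11, 13 and 18 counts in control 1, 2 and 3, shares no annotated exon with Igf2r, and was too low to compare.

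The adaptor genes had the largest differences among the 6. Irs1 (ENSMUSG00000055980, chromosome 1, 82233101 to 82291416, minus strand) had 42, 47 and 23 counts in FID 1, 2 and 3 and 70, 72 and 70 counts in control 1, 2 and 3. Scaled to depth, it stood at 4.73, 4.93 and 2.48 CPM in FID 1, 2 and 3 and at 13.8, 7.30 and 6.83 CPM in control 1, 2 and 3. The groups did not overlap, with FID 3 the lowest library and control 1, where the same number of reads came from the smallest library, the highest. The count of 23 in FID 3 has an exact 95% Poisson interval of 14.6 to 34.5. FID over control came to -1.17 on the log2 scale (SE 0.38), at an edgeR adjusted p of 0.183 and with a 95% interval from 17.8% to 76.1% lower, and it was -0.80 without control 1. An annotated gene on the other strand, Gm9747, lies within the last exon of Irs1, shares 30.9% of its exon bases and had 0 counts in every library. How the counting treated strand is not given in the sources used here, and reads from that stretch may be missing from the Irs1 count in all libraries alike.

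Irs2, the other main adaptor, followed another order of libraries. In mouse liver it is known as a gene that FoxO factors switch on when insulin is low. The gene (ENSMUSG00000038894, chromosome 8, 10984681 to 11008458, minus strand) stood at 74.9, 26.7 and 25.4 CPM in FID 1, 2 and 3 and at 96.5, 128 and 67.4 CPM in control 1, 2 and 3. FID 2 and FID 3 lay far below all controls, whereas FID 1 lay above control 3, so the groups overlapped. The means were 42.3 ± 28.2 CPM in FID and 97.3 ± 30.3 CPM in control (SD, n = 3 each), which is -1.20 on the log2 scale (SE 0.45), at an edgeR adjusted p of 0.218 and with a 95% interval from 9.95% to 79.0% lower. Without FID 1 the log2 fold change was -1.89 and passed (edgeR adjusted p 0.0343). That fit called 359 genes, where the fit on all 6 libraries called 0. The adjusted p of Irs2 ranged from 0.0343 to 0.534 over the 6 fits that each left out a library. With sample weights in limma-voom the log2 fold change was -1.80 (adjusted p 0.0251), and that fit called 11.9% of all tested genes. The count of Irs2 was 15.8, 5.40 and 10.2 times that of Irs1 in FID 1, 2 and 3 and 6.97, 17.5 and 9.86 times in control 1, 2 and 3. On the log2 scale this ratio averaged 3.26 ± 0.780 in FID and 3.41 ± 0.672 in control, a difference of -0.15 (exact two-sided permutation p 0.8; adjusted p 0.8), and its sign turned without FID 2 (0.26) or control 2 (0.21).

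**Figure D2:**
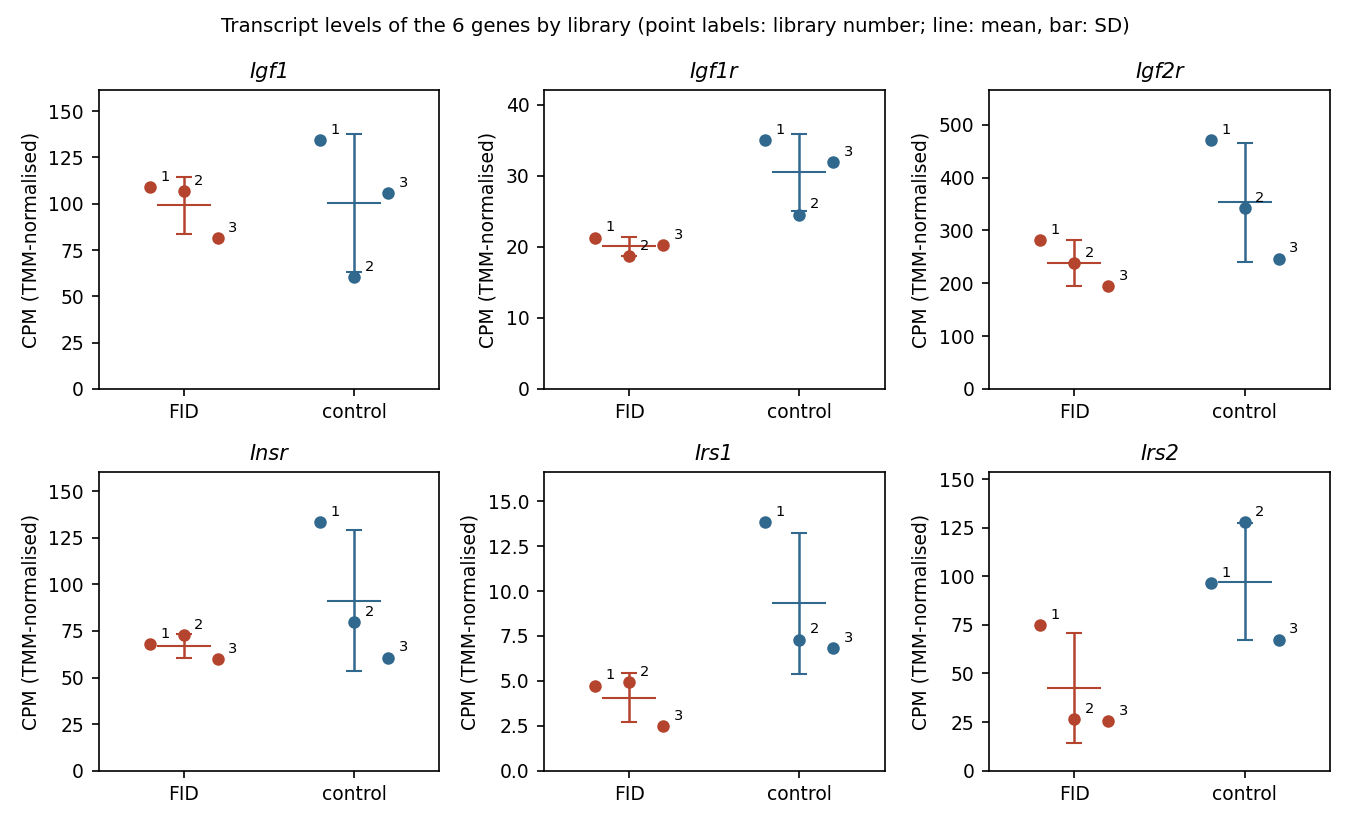
Level of each gene in TMM-normalised CPM (y axis, from 0) in the 3 FID and 3 control libraries, with points numbered by library, a line at the mean and bars of 1 SD. Igf1r and Irs1 do not overlap between groups, FID 1 stands above FID 2 and FID 3 for Irs2, and control 1 is the highest point for every gene but Irs2.

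All 6 log2 fold changes lay below 0, Igf1 only marginally so, against 52.2% of all tested genes. Their median was -0.58, and the median over all tested genes was -0.019. Of the 6, 2 were lower in FID without overlap, Igf1r and Irs1, against 12.3% of all tested genes, and 3 had an unadjusted edgeR p below 0.05 on the lower side, Igf1r, Irs1 and Irs2, against 9.21%. The 6 genes were chosen with earlier results of these data known, so these shares are a description and not a test. None of the 6 passed the adjusted threshold, which 0% of tested genes did. DESeq2 called 5.78% of the genes it gave an adjusted p, and none of the 6. The median of the 6 stayed between -0.71 and -0.40 when 1 library at a time was left out, and it was smallest in size without control 1.

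**Figure D3:**
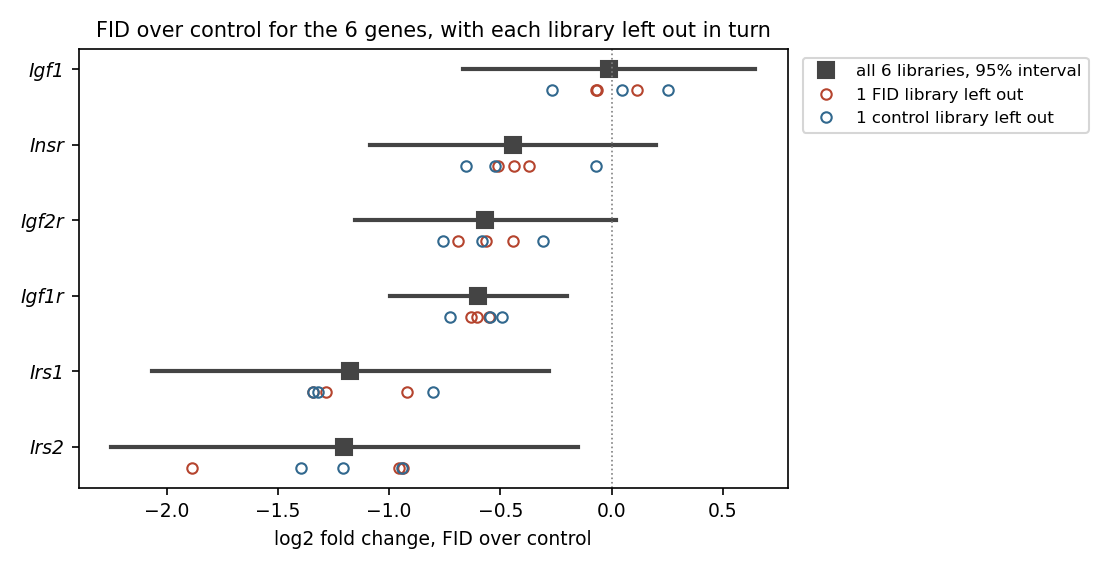
Log2 fold change of FID over control (x axis) for the 6 genes, with squares and lines for all 6 libraries and their approximate 95% intervals, and open circles for fits that leave out 1 FID or 1 control library. The intervals of Igf1r, Irs1 and Irs2 lie below 0 and those of Igf1, Insr and Igf2r span it, and Igf1 is the gene whose circles fall on both sides of 0.

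The count of the ligand relative to that of its receptor was higher in each FID library than in any control library. The count of Igf1 was 5.12, 5.72 and 4.04 times that of Igf1r in FID 1, 2 and 3 and 3.84, 2.46 and 3.31 times in control 1, 2 and 3, as counts not adjusted for length. The groups did not overlap, and FID 3 and control 1 lay closest to each other. The log2 ratio averaged 2.30 ± 0.257 in FID and 1.66 ± 0.326 in control (SD, n = 3 each), a difference of 0.64. The exact two-sided permutation p was 0.1, the smallest that 3 libraries against 3 allow, and 0.3 when adjusted over the 3 ratios. Leaving out 1 library at a time kept the difference between 0.46 and 0.78.

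Per kilobase of merged exon, the order of levels was similar in both groups. In FID, Igf2r averaged 25.6 ± 4.63 CPM per kb, followed by Igf1 at 10.02 ± 1.55, Irs2 at 6.69 ± 4.47, Insr at 4.86 ± 0.478, Igf1r at 1.19 ± 0.0780 and Irs1 at 0.443 ± 0.149 CPM per kb (SD, n = 3). In control, Igf2r averaged 37.9 ± 12.1 CPM per kb, followed by Irs2 at 15.4 ± 4.79, Igf1 at 10.1 ± 3.76, Insr at 6.64 ± 2.75, Igf1r at 1.82 ± 0.321 and Irs1 at 1.02 ± 0.429 CPM per kb. Igf1 and Irs2, which change places between the groups, overlapped in their library values in both groups, as did Insr with Irs2 in FID and Insr with Igf1 in control. Igf1r and Irs1 overlapped in control and not in FID. Igf2r lay above and Igf1r and Irs1 lay below all the others in every library.

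Markers of several cell types differed in level between the same libraries, though no marker gene passed the adjusted edgeR test. Of 20 FAP markers 18 were below 0 in log2 fold change, and their summed level was 38972 to 52879 CPM in FID and 70396 to 77983 CPM in control. The collagen genes Col1a1, Col1a2 and Col3a1 made up 72.9% to 79.4% of that sum in FID and 79.5% to 82.0% in control. The other 17 genes, set apart after their values were seen, summed to 10550 to 10914 CPM in FID and 14020 to 14443 CPM in control, with 15 below 0. Ly6a, a surface marker of FAPs, was on the other side of 0, at 497, 2327 and 1890 CPM in FID 1, 2 and 3 and at 434, 446 and 662 CPM in control 1, 2 and 3. FID 2 and FID 3 were high and FID 1 lay among the controls (log2 fold change 1.61, SE 0.51, edgeR adjusted p 0.179; DESeq2 adjusted p 0.0189). All 18 macrophage markers were above 0, with a summed level of 9477 to 12531 CPM in FID and 4239 to 7434 CPM in control. Of these, 9 were higher in FID without overlap, against 13.0% of all tested genes. Cx3cr1, Mrc1 and Cd14 were nearly level, with log2 fold changes of 0.030, 0.040 and 0.048. Lyz2, a large part of the sum, stood at 4302, 2193 and 1720 CPM in FID 1, 2 and 3 and at 1857, 2283 and 1429 CPM in control 1, 2 and 3. No gene of either list was at 0 in all libraries. All 10 endothelial markers were below 0, and their summed level was 1415 to 2269 CPM in FID, whereas it was 5007 CPM in control 1, 2171 CPM in control 2 and 1450 CPM in control 3. Pericyte and smooth muscle markers summed to 1152 to 1378 CPM in FID, 2690 CPM in control 1 and 1478 and 1310 CPM in control 2 and 3, with 8 of 9 below 0. Control 1 thus held the most vessel-associated transcripts and the highest levels of Igf1, Igf1r, Igf2r, Insr and Irs1. Its sum was also the highest for markers of muscle stem cells and myoblasts, at 151 CPM against 46.4 to 101 CPM elsewhere. The same held for adipocyte markers, at 1317 CPM against 979 to 1117 CPM elsewhere, and for the fibre markers given above. It did not hold for the FAP, macrophage and interferon sums. All 10 interferon response markers were above 0, with a summed level of 707 CPM in FID 1, 5512 CPM in FID 2 and 3043 CPM in FID 3 and of 232 to 832 CPM in control. FID 2 and FID 3, the libraries with the lowest Irs2, were the highest of the 6 in these markers. The part of cell content in the levels of the 6 genes was not tested, and in such bulk samples fewer cells of a type cannot be told apart from less RNA per cell.

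**Figure D4:**
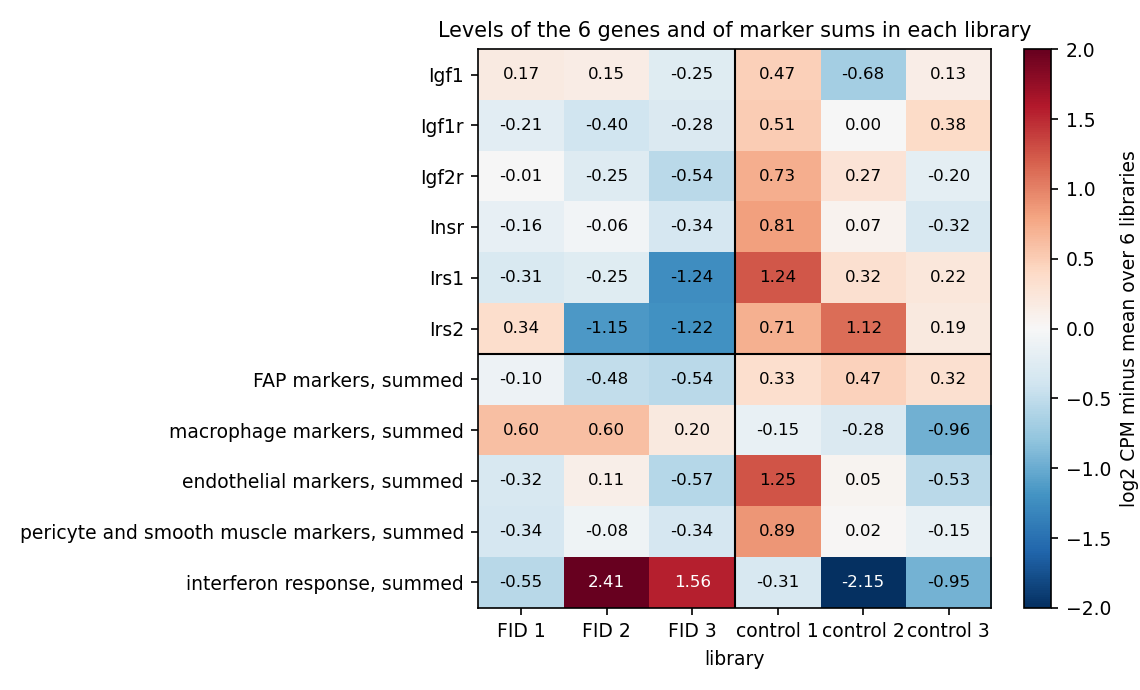
Log2 CPM of the 6 genes and of the summed markers of 5 lists in each library (columns), as the difference from the mean over the 6 libraries, with FID left of the line. Control 1 is at 1.24 for Irs1, 0.81 for Insr and 1.25 for the endothelial sum, and FID 2 and FID 3 are at -1.15 and -1.22 for Irs2 and at 2.41 and 1.56 for the interferon sum.

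For each gene, the transcripts with the most similar profile over the 6 libraries were taken from 9103 genes with a mean of at least 10 CPM, by Pearson's r of log2(CPM + 1). With 6 points and so many candidates high values are unavoidable, and they are given as a description. Igf1 had the fewest close profiles, 7 genes with r of at least 0.95, led by Dmap1 (r = 0.98), 2510009E07Rik (r = 0.97) and the splicing coactivator gene Srrm1 (r = 0.97). Insr had the most, 299 genes, led by the caveola gene Cavin2 (r = 0.999), the scaffold gene Shank3 (r = 0.999) and the tolloid protease gene Tll1 (r = 0.998). Cavin2 had 203 CPM in control 1, its highest library as for Insr, and between 87.3 and 117 CPM elsewhere. Igf2r had 248 close profiles, led by the ubiquitin ligase gene Herc1 (r = 0.998), Fam43a (r = 0.996) and the alpha-catenin gene Ctnna1 (r = 0.995). Irs1 had 170, led by the pericentrin gene Pcnt (r = 0.995), Prr12 (r = 0.994) and Wwc2 (r = 0.994). Irs2 had 58, led by the nucleoporin gene Pom121 (r = 0.988), the small Maf factor gene Maff (r = 0.987) and Uap1 (r = 0.987). Maff stood at 56.0, 25.6 and 26.4 CPM in FID 1, 2 and 3 and at 69.0, 69.4 and 46.4 CPM in control 1, 2 and 3, with FID 1 above control 3 as for Irs2. Igf1r had 45, led by the chromatin reader gene Zmynd11 (r = 0.996), the protease inhibitor gene Pi15 (r = 0.994) and Dusp11 (r = 0.993).

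Around the 6 genes, 108 other genes of the pathway were listed and 94 were tested. These lists, too, were chosen with earlier results of these data known, so their shares are a description. No gene of these lists passed the adjusted edgeR test. DESeq2 called 6 of them, against 5.78% of its genes, and limma-voom with sample weights called 13, against 11.9% of all tested genes. At an unadjusted p below 0.05, 8 were lower and 12 higher in FID, against 9.21% and 9.81% of all tested genes, and their median log2 fold change was -0.095. Groups did not overlap for 13 on the lower side and 16 on the higher side, against 12.3% and 13.0% of all tested genes. These shares were near the background on the lower side and somewhat above it on the higher side. The 94 include 16 genes that act with the Igf2r product, given below. On the higher side, those 16 supplied 6 of the 12 genes with a p below 0.05 and 8 of the 16 without overlap.

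Among ligands, the insulin genes Ins1 and Ins2 had no count in any library. Igf2, the fetal growth factor cleared by the Igf2r product, stood at 45.4, 64.8 and 41.1 CPM in FID 1, 2 and 3 and at 198, 43.2 and 37.0 CPM in control 1, 2 and 3. The high value of control 1 stood alone and the remaining libraries were alike, and FID over control came to -0.86 on the log2 scale (SE 0.62) at an edgeR adjusted p of 0.478. Among 9 tested binding proteins and their regulators, all 9 were below 0 with a median of -0.65, and 3 had an unadjusted p below 0.05, against 9.21% of all tested genes on that side. These were Igfbp7, at 345 ± 80.7 CPM in FID and 629 ± 142 CPM in control, Igfbp3, at 49.5 ± 14.0 CPM in FID and 88.1 ± 26.9 CPM in control, and Igfbp4, at 545 ± 66.0 CPM in FID and 949 ± 476 CPM in control (SD, n = 3 each). None of the 3 passed in edgeR, with adjusted p of 0.143 for Igfbp7, 0.197 for Igfbp3 and 0.241 for Igfbp4. DESeq2 called Igfbp7 (adjusted p 0.0185), and limma-voom with sample weights called Igfbp7 and Igfbp3 (adjusted p 0.0237 and 0.0426). The summed level of the list was 1174 to 1474 CPM in FID and 3169, 1871 and 1564 CPM in control 1, 2 and 3. Control 1 was the highest library for all tested genes of the list but Igfbp6 and Pappa. For Igfbp2, Igfbp5 and Stc1, control 2 and control 3 lay within the FID range. Igfbp3 and Igfbp4 products bind IGFs with high affinity, and that of Igfbp7 binds them weakly.

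Genes of the growth hormone axis, which drives Igf1 transcription in liver, went both ways. Of its 6 tested genes 3 were above and 3 below 0, with a median of -0.066, and values reached -0.77 (SE 0.41) for Cish. Ghr, the growth hormone receptor gene, averaged 53.1 ± 5.91 CPM in FID and 46.5 ± 3.95 CPM in control, Cish, a STAT5 target that dampens cytokine signals, 5.00 ± 1.91 CPM in FID and 8.77 ± 4.25 CPM in control, and Jak2, the kinase bound to that receptor, 152 ± 22.5 CPM in FID and 181 ± 45.6 CPM in control (SD, n = 3 each). Their adjusted edgeR p lay between 0.345 and 0.542.

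Adaptors other than Irs1 and Irs2 went both ways, with 14 of 20 below 0 and a median of -0.23. Dok2, an adaptor of blood cells, averaged 27.1 ± 5.65 CPM in FID and 14.7 ± 3.84 CPM in control (log2 fold change 0.87, SE 0.24). Its relative Dok1 averaged 67.9 ± 13.6 CPM in FID and 46.4 ± 3.20 CPM in control (log2 fold change 0.55, SE 0.17), and Shc2 18.04 ± 1.81 CPM in FID and 24.8 ± 0.897 CPM in control (log2 fold change -0.46, SE 0.14). The groups did not overlap for these 3 genes, which had the smallest p of the list. Their adjusted edgeR p lay between 0.148 and 0.178. Over all 20 adaptors, 3 were lower and 3 higher in FID without overlap, against 12.3% and 13.0% of all tested genes. DESeq2 called Dok2 (adjusted p 0.0399), and limma-voom with sample weights called Dok2 (0.0260), Dok1 (0.0320) and Shc2 (0.0453). The Irs genes outside the members were scarce, Irs3 having 2 to 11 counts and Irs4 0 or 1 count per library.

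Negative regulators of the receptors had a median of -0.20, with 9 of 15 below 0. Prkcd, a kinase that can phosphorylate IRS1, averaged 110 ± 10.9 CPM in FID and 69.1 ± 14.1 CPM in control (log2 fold change 0.68, SE 0.17, edgeR adjusted p 0.139), and it passed in DESeq2 (adjusted p 0.0260) and with sample weights (adjusted p 0.0207). Grb10, an imprinted gene whose product binds both kinase receptors and inhibits them, averaged 260 ± 73.0 CPM in FID and 401 ± 38.0 CPM in control (log2 fold change -0.62, SE 0.21, edgeR adjusted p 0.188), and it passed with sample weights (adjusted p 0.0300) and without FID 1 (adjusted p 0.0453). Socs3, an inhibitor that also targets IRS proteins, averaged 354 ± 98.6 CPM in FID and 682 ± 301 CPM in control (log2 fold change -0.95, SE 0.34, edgeR adjusted p 0.204). Downstream, PI3K, AKT, FoxO and mTOR genes had a median of -0.084, with 17 of 24 below 0. Pik3r3, a regulatory subunit of PI3K, averaged 34.6 ± 2.49 CPM in FID and 48.2 ± 4.73 CPM in control, Pik3cd, the catalytic subunit of leukocytes, 55.2 ± 8.59 CPM in FID and 34.2 ± 10.5 CPM in control, and Phlpp1, a phosphatase of AKT, 26.6 ± 1.49 CPM in FID and 38.4 ± 11.7 CPM in control (SD, n = 3 each). Their log2 fold changes were -0.48 (SE 0.13), 0.70 (SE 0.24) and -0.52 (SE 0.22), with adjusted edgeR p of 0.157, 0.196 and 0.265. Pik3cd passed with sample weights (adjusted p 0.0386).

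Genes whose products act with that of Igf2r lay mostly on the other side of 0 from Igf2r itself. Of 16 tested genes 14 were above 0, with a median of 0.23, and 8 were higher in FID without overlap, against 13.0% of all tested genes. The list holds Plau and Plaur, urokinase and its receptor, which are not sorting genes. Without them, a choice made after the values were seen, 13 of 14 sorting genes were above 0, with a median of 0.30, and 8 were higher without overlap. Vps26a, a subunit of the retromer that returns the receptor from endosomes, stood at 118, 139 and 133 CPM in FID 1, 2 and 3 and at 82.3, 89.0 and 79.8 CPM in control 1, 2 and 3. FID over control came to 0.63 on the log2 scale (SE 0.12), at an adjusted p of 0.136 in edgeR and 0.00227 in DESeq2. M6pr, the small mannose 6-phosphate receptor that binds no IGF-II, averaged 254 ± 41.6 CPM in FID and 168 ± 10.9 CPM in control (log2 fold change 0.60, SE 0.16, edgeR adjusted p 0.141; DESeq2 adjusted p 0.0278). Snx2, a sorting nexin that acts with the retromer, averaged 250.1 ± 37.2 CPM in FID and 152 ± 38.5 CPM in control (log2 fold change 0.71, SE 0.21, edgeR adjusted p 0.164; DESeq2 adjusted p 0.04998). With sample weights the adjusted p was 0.0197 for Vps26a, 0.0251 for M6pr and 0.0261 for Snx2, and without FID 1 it was 0.0478 for Vps26a and 0.04997 for M6pr in edgeR. The macrophage markers given above were higher in the same libraries, and their part in these values was not tested.

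Of 3 tested genes in a mixed list of other IGF-II, insulin or Igf2-mRNA partners, 1 was below 0 and 2 above, with a median of 0.43. Lrp1, a large endocytic receptor reported to bind IGFBP3, averaged 1471 ± 171 CPM in FID and 2132 ± 364 CPM in control (log2 fold change -0.54, SE 0.17, edgeR adjusted p 0.181), and it passed with sample weights (adjusted p 0.0313). Igf2bp2, which binds Igf2 mRNA, averaged 33.2 ± 7.59 CPM in FID and 21.7 ± 3.44 CPM in control (log2 fold change 0.61, SE 0.21, edgeR adjusted p 0.191). Both separated the groups without overlap, Lrp1 on the lower and Igf2bp2 on the higher side, as did 12.3% and 13.0% of all tested genes. Sorl1, a sorting receptor of endosomes, averaged 33.7 ± 2.34 CPM in FID and 25.2 ± 8.396 CPM in control (log2 fold change 0.43, SE 0.25, edgeR adjusted p 0.383).

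**Figure D5:**
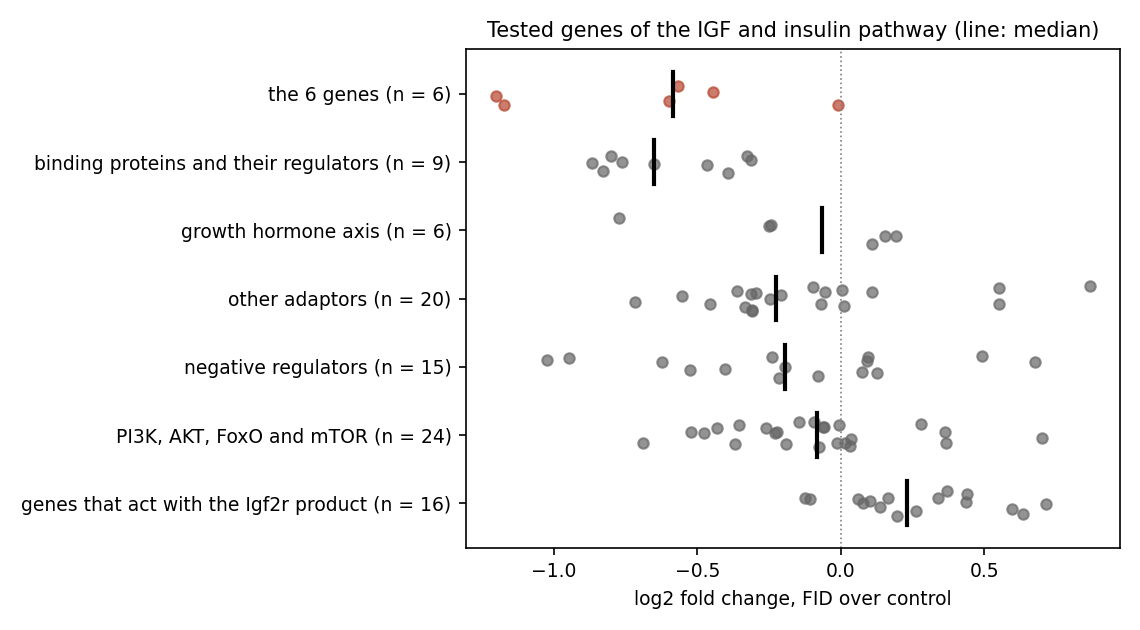
Log2 fold change of FID over control (x axis) for the tested genes of 7 groups, 1 point per gene, with a line at each median. The 6 genes have a median of -0.58, the binding proteins lie wholly below 0, and the genes that act with the Igf2r product have a median of 0.23.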

How the data were processed

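Total RNA of 6 libraries, 3 titled FID and 3 titled control, was made into strand-specific libraries (input 1000 ng, RNA integrity number over 5.6), per the labels' protocols. The authors deposited raw counts of reads per Ensembl gene. The build was mm10, and the tools named, without a role, are STAR, HTSeq, cutadapt, Bowtie2 2.5.4, SAMtools and DESeq2, per the submitters' processing notes. Strand setting and annotation release: not given in the sources used here. Entries naming no gene, 9.60% to 10.9% of each file, were left out. A symbol was matched for 42462 genes.

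Genes were filtered with filterByExpr (minimum count 10, minimum total 15) and tested with edgeR 4.0.16 (TMM, default quasi-likelihood fit, two-sided, group as the only term), with Benjamini-Hochberg adjustment over all 12881 tested genes at 0.05. SE are the absolute log2 fold change over the square root of F, and intervals built on them are approximate. DESeq2 1.42.0, limma 3.58.1 voom with and without sample weights, RLE factors, no filter, a block on the title number and leaving out each library were run as alternatives. The fitting functions were tested on simulated data. Merged exon lengths came from GENCODE M21. The members and lists were chosen with earlier results of these data known. Named genes are the members, their 3 closest profiles each, the 3 smallest p in each pathway list, genes overlapping a member, and marker genes. Promoter motifs were chosen after the sequences were seen.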

Additional observations from a re-analysis of the deposited data

How the results depend on the processing

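Igf1r, Igf2r, Insr, Irs1 and Irs2 kept a log2 fold change below 0 under every alternative run, and of these only Irs2 passed, at -1.80 in limma-voom with sample weights and at -1.89 without FID 1. Its values with 1 library left out ran from -1.89 to -0.94. Igf1 lay above 0 with no filter on low counts (0.015), in limma-voom (0.060), with sample weights (0.38) and with the replicate block (0.044), and ran from -0.27 to 0.25 with 1 library left out. Genes called numbered 0 in edgeR, 269 with no filter, 760 in DESeq2, 1531 with sample weights and 0 to 359 with 1 library left out (359 without FID 1, 3 without control 1), and 2449 had an unadjusted edgeR p below 0.05. Pathway genes called numbered 0, against 6 in DESeq2, 13 with sample weights and 0 to 3 with 1 library left out. The causes were not tested. With 1 library left out, the log2 ratio difference ran from -0.52 to 0.26 for Irs2 to Irs1 and from -0.42 to 0.082 for Igf1r to Insr. Title numbers gave no clear pairing: deviations of same-numbered libraries correlated at -0.013, -0.32 and 0.34. Those of differently numbered libraries ran from -0.38 to 0.33. So few libraries cannot decide whether they were paired. The replicate block gave 0 called genes and log2 fold changes of -0.59 for Igf1r, -1.18 for Irs1 and -1.34 for Irs2. Depth limits Irs1 most, with 23 to 72 counts per library.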

Other observations

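The balance between the mannose 6-phosphate receptor genes was examined after their values were seen and was not tested. The level of Igf2r was 1.35, 0.824 and 0.739 times that of M6pr in FID 1, 2 and 3 and 2.66, 2.00 and 1.58 times in control 1, 2 and 3. These are ratios of counts, not adjusted for length. Every FID library lay below every control library, with means of 0.973 ± 0.334 in FID and 2.08 ± 0.543 in control (SD, n = 3 each).

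Control 3 held 13.7 CPM of Xist, the transcript of the inactive X chromosome, together with 40.1 CPM of the Y-linked Ddx3y. In the other libraries Xist and Ddx3y were not both above 1 CPM. FID 1 had 30.4 CPM of Xist, FID 2 had 25.8 CPM, FID 3 had 0 CPM, control 1 had 51.6 CPM and control 2 had 0.507 CPM.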
